A study of Pinus pinaster with 24 samples.

Results

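The 200 transcript features described here were high in both leaf organs of maritime pine seedlings, needles and cotyledons, and low in both axis organs, stem and roots. They were chosen from 67271 listed features on the 12 control libraries. Values were put on the scale log2(value + 0.5) and averaged over the 3 control libraries of an organ. Among the 64132 features whose needle and cotyledon means lay within 2 of each other, the members are the 200 with the largest gap, the lower leaf mean minus the higher axis mean. High leaf and low axis levels in the control libraries are therefore what the choice used and are not a result.

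RNA was sequenced from seedlings of Pinus pinaster of the Segura-Alcaraz provenance, 4 months old, in 24 libraries. The first 12 libraries, 3 each from needles, cotyledons, stem and roots, came from seedlings given 0.5 mM K2SO4 (sulfate). The other 12, also 3 per organ, came from seedlings given 1 mM KCl (control). All 8 groups had first been watered weekly with 0.3 mM KNO3, a feed without sulfur, for 3 months beginning 1 month after germination, so no group of seedlings with a full sulfur supply is among them. Organs were frozen 24 h after the last watering, and each library is a pool of 13 to 14 seedlings, which hides differences between single plants.

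A conifer seedling opens a whorl of green cotyledons, its seed leaves, and later forms needles at the shoot tip. Both are photosynthetic organs with many chloroplasts, which roots lack in the dark, and genes of light harvesting and carbon fixation are well known to be far more active in such organs than in roots. Leaves also reduce sulfate in their chloroplasts and build the sulfide into cysteine. The files do not pair the identifiers with gene names, so no member can be given a function, none can be assigned to these processes, and the organ labels could not be checked against marker genes.

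Levels are given as normalized CPM, reads relative to a library size that the authors had scaled. Between 92664463 and 195881948 reads stood behind a library. Levels are not divided by transcript length, so a higher value in one feature than in another does not show more transcripts. In organ RNA, fewer cells of a type and less RNA per cell cannot be told apart. Many members have neighbouring identifier numbers and may be copies or pieces of the same transcript, between which the authors' counting could have split reads, so members are not independent of each other. Groups of members with numbers at most 2 apart are given as such below.

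In the control libraries, whose values set the choice, the gap was 4.44 to 11.05 on the log2 scale over the members, with a median of 5.18. The median over all features was -0.39. PpCO2_37288 and PpCO2_134170 came first, with gaps of 11.05 and 9.40. At the lower edge, PpCO2_176291 (gap 4.45) and PpCO2_83697 (4.44) were the last inside, and PpCO2_17950 and PpCO2_17988 (both 4.42) the first outside. The control means of PpCO2_83697 were 11.8 normalized CPM in needles and 12.2 in cotyledons, against 0.0436 in stem and 0.0681 in roots. Those of the excluded PpCO2_17950 were 27.0 and 14.5 normalized CPM in needles and cotyledons, against 0.200 in stem and 0.00871 in roots. The edge thus separates features with almost equal gaps. A further 6 features had a gap as large as a member's but needle and cotyledon means more than 2 apart, and 1 of them was higher in needles.

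The sulfate libraries, which the choice did not use, showed the same division between leaf and axis organs. Each of the 200 members was higher in needles than in roots, in needles than in stem, in cotyledons than in roots and in cotyledons than in stem (limma with Benjamini-Hochberg adjustment over all features, adjusted p under 0.05 in all 4 contrasts). Of all listed features 19.1% were higher in this way and 19.6% were lower in all 4, or 12857 and 13166 features. Scaled to each library's own total, 9865 features were higher and 19410 lower, and the members were still 200 of 200. The largest adjusted p of a member in any of the contrasts was 6.621e-05, for cotyledons against roots (limma, Benjamini-Hochberg). The median log2 difference over the members was 5.94 for needles minus roots, 5.68 for needles minus stem, 5.86 for cotyledons minus roots and 5.44 for cotyledons minus stem. Over all features these medians were -0.11, -0.08, -0.02 and -0.01.

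The gap in the sulfate libraries ran from 3.19 to 11.02, with a median of 5.24, and the median over all features was -0.40. It was at least 4 on the log2 scale in 196 members, and in 0.507% of all features (341). Compared with the control gap it was larger in 118 members and smaller in 82, with a median change of 0.06 and a range of -1.38 to 1.22. Selection by a large control gap can by itself make the sulfate gap smaller on average. Applied to the sulfate libraries, the same rule returned 177 of the 200 members.

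**Figure D1:**
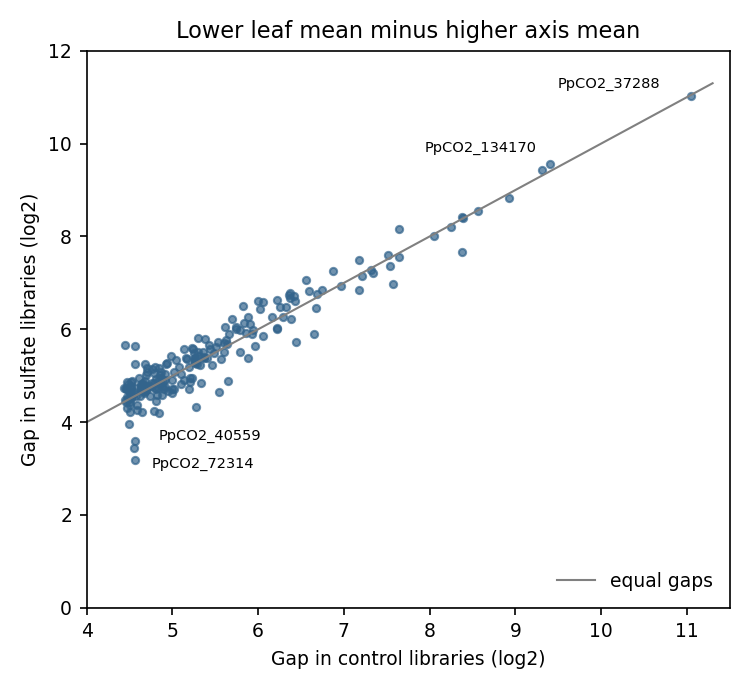
Gap between leaf and axis organs (lower leaf mean minus higher axis mean, log2 of normalized CPM + 0.5) in the sulfate libraries against the control libraries. Each point is 1 of the 200 members, and the line marks equal gaps. Members run from 3.19 to 11.02 in sulfate and lie along the line, with PpCO2_72314 and PpCO2_40559 lowest.

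Of the 23 members that the rule did not return in the sulfate libraries, 6 had needle and cotyledon means more than 2 apart there. They were PpCO2_100173, PpCO2_100174, PpCO2_100182, PpCO2_100186, PpCO2_110527 and PpCO2_40559, all higher in needles, and were listed after their values were seen. The gaps of PpCO2_110527 (4.20) and PpCO2_40559 (3.45) also lay under 4.54, the smallest gap the rule returned there. By the sulfate gap alone, over all features and without the limit, the lowest member stood at place 905. The 23 features that took the places of those members all lay within the limit in the controls, with control gaps from 3.34 to 4.42. In the rule's control list, which applies the limit, the lowest of them had rank 605.

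The member with the highest mean over the sulfate leaf libraries was PpCO2_161976. It had 4535, 3899 and 2788 normalized CPM in sulfate needles and 3914, 2503 and 3210.4 in control needles, with 3840.2, 3359 and 3186 in sulfate cotyledons and 3344, 3438 and 3373 in control cotyledons. In stem it had 80.5, 84.9 and 79.7 normalized CPM with sulfate and 78.8, 72.8 and 94.8 in control, and in roots 47.1, 43.8 and 43.0 with sulfate and 53.4, 49.5 and 67.8 in control. The axis values are far below the leaf values and do not overlap them, yet they are well above the median of all features in those organs (4.64 normalized CPM in sulfate stem and 4.54 in sulfate roots). Its sulfate gap was 5.39 ± 0.14 in log2 units (SE; limma, Benjamini-Hochberg adjusted p = 2.87e-11 for the weakest of the 4 contrasts).

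PpCO2_37288, second by leaf mean, had the largest gap in both treatments. It had 3253, 3581 and 2288 normalized CPM in sulfate needles and 3091, 2262 and 2084 in control needles, with 1210.2, 1387 and 2512 in sulfate cotyledons and 1559.5, 1845 and 1683 in control cotyledons. In stem it had 0.0685, 0.0951 and 0.901 normalized CPM with sulfate and 0.433, 0.249 and 0.221 in control. In roots it had 0, 0.572 and 0.112 normalized CPM with sulfate and 0, 0.314 and 0.753 in control. The lowest of 12 leaf values was thus 1210.2 and the highest of 12 axis values 0.901, with sulfate cotyledons 3 standing above the other cotyledon libraries. The sulfate gap was 11.02 ± 0.39 (SE; limma, Benjamini-Hochberg adjusted p = 3.75e-10).

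PpCO2_134170 followed, with 661, 640.0 and 444 normalized CPM in sulfate needles and 425, 564 and 367 in sulfate cotyledons, against 0, 0.0761 and 0.138 in sulfate stem and 0, 0.313 and 0.00800 in sulfate roots. Its sulfate gap was 9.56 ± 0.22 (SE; limma, Benjamini-Hochberg adjusted p = 1.97e-11). Both features were thus present in every leaf library and at or near 0 in the axis.

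At the other end, PpCO2_72314 had the smallest sulfate gap. It had 8.89, 8.64 and 5.53 normalized CPM in sulfate needles and 9.25, 13.4 and 12.1 in control needles, with 4.05, 3.75 and 4.59 in sulfate cotyledons and 10.9, 18.7 and 9.75 in control cotyledons. Its axis values were at most 0.0184 normalized CPM, and its means were the lowest of any member in both sulfate leaf organs. The gap was 3.19 ± 0.16 (SE; limma, Benjamini-Hochberg adjusted p = 3.95e-09), on a scale where the added 0.5 compresses differences at low levels. PpCO2_40559 came next, with a gap of 3.45 ± 0.31 (SE; limma, Benjamini-Hochberg adjusted p = 8.09e-07). Its values were 39.9, 23.8 and 19.7 normalized CPM in sulfate needles, 8.0001, 5.96 and 2.77 in sulfate cotyledons, and at most 0.0537 in the axis. The value of 2.77 is the lowest of any member in any leaf library.

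**Figure D2:**
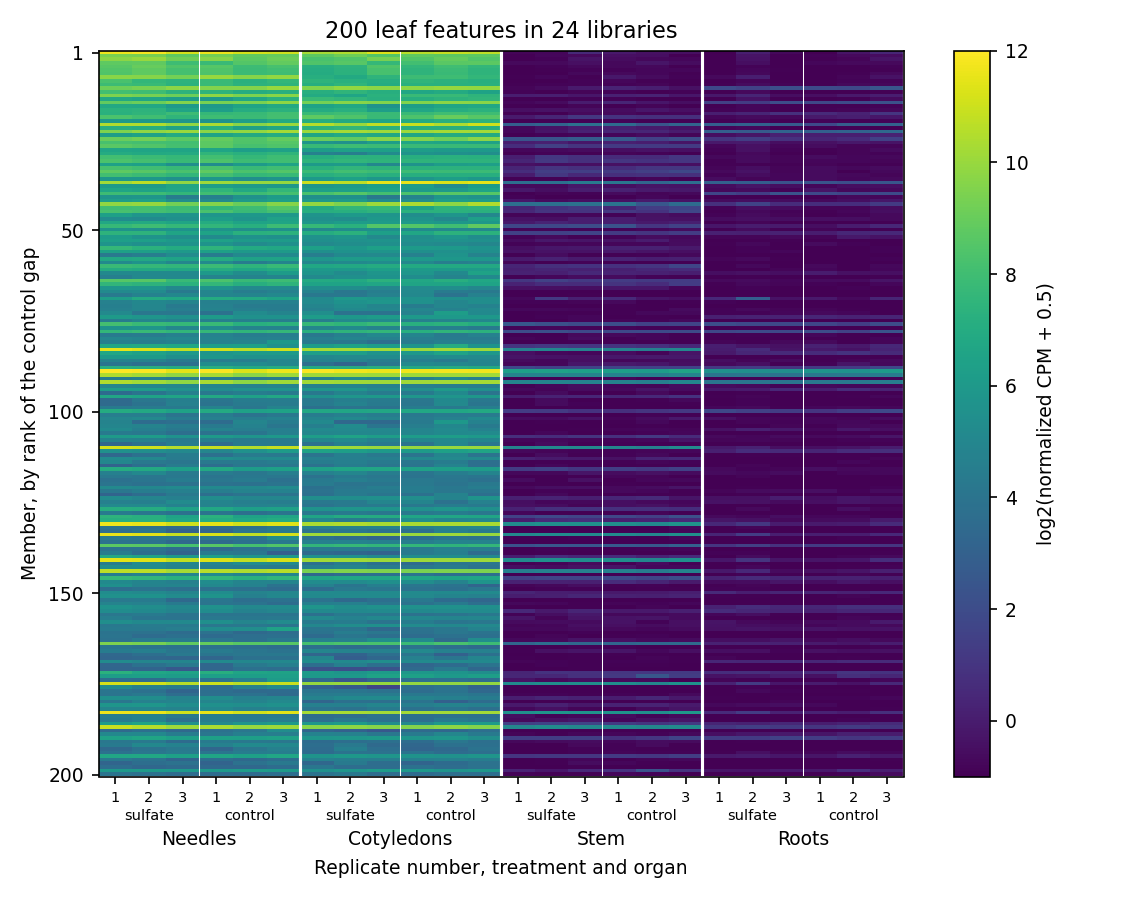
Levels of the 200 members (rows, in the order of the rule) in the 24 libraries (columns, 3 per group), as log2 of normalized CPM + 0.5. The 12 needle and cotyledon columns are high in every row, and the 12 stem and root columns are near the floor in most rows.

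Members spanned a wide range of levels in the leaf organs. In the sulfate libraries the member means had a median of 44.7 normalized CPM in needles (7.69 to 3741) and 40.2 in cotyledons (4.13 to 3462), while the median of all features was 4.62 and 4.57. A mean of at least 100 was reached by 69 members in needles and 59 in cotyledons. In sulfate stem the median of the member means was 0.140 normalized CPM (0 to 81.7), and in sulfate roots it was 0.0724 (0 to 44.6). A mean of at least 1 was reached by 44 members in stem and 23 in roots.

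Most members were barely detected in the axis. In the sulfate libraries, which the choice did not use, 156 members had a mean under 1 normalized CPM in stem and 177 in roots. The share of all features under 1 was not counted. The counts that follow pool both treatments, and the control libraries among them also set the choice, so they are a description only. Over the 12 axis libraries of both treatments, 135 members stayed under 1 normalized CPM in each library and 13 reached 1 in each. At the level of reads, 6 members had 0 reads in all 6 stem libraries, 7 in all 6 root libraries and 1 in all 12. A count of 0 allows up to 3 reads, which in these libraries is worth 0.0165 to 0.0351 normalized CPM and covers counting error only, and 9 members had at most 3 reads in every axis library. A single axis library left 22 to 52 members at 0 reads in stem and 26 to 67 in roots, while every member had reads in every leaf library.

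Relative to its mean over needles and cotyledons, the level of a member in sulfate stem had a median of 0.325% and reached at most 3.91%. In sulfate roots the median was 0.0862% and the highest 3.51%. The lower and upper quartiles were 0.0807% and 0.989% in stem and 0.0389% and 0.403% in roots. These shares spread widely, but the low ones rest on few or no axis reads. The lower quartile of the member means in sulfate roots was 0.0167 normalized CPM, while 3 reads in a root library are worth 0.0240 to 0.0268. In the controls the choice also bounded such shares from above.

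Together the members took 5.13, 5.10 and 4.11% of the reads in sulfate needles, against 4.76, 4.03 and 4.64% in control needles, means of 4.78 ± 0.577% and 4.48 ± 0.391% (SD, n = 3 each). In cotyledons they took 3.40, 3.40 and 3.70% with sulfate, against 3.50, 3.68 and 3.63% in control (3.50 ± 0.172% and 3.604 ± 0.0952%). In stem the shares were 0.0651 ± 0.0056% with sulfate and 0.0658 ± 0.0085% in control, and in roots 0.0192 ± 0.0017% and 0.0213 ± 0.0036% (SD, n = 3 each). In each organ the sulfate and control values overlapped. The sum rests on few members: the 10 highest held 45.3 to 50.3% of it in needles and 41.2 to 45.0% in cotyledons.

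**Figure D3:**
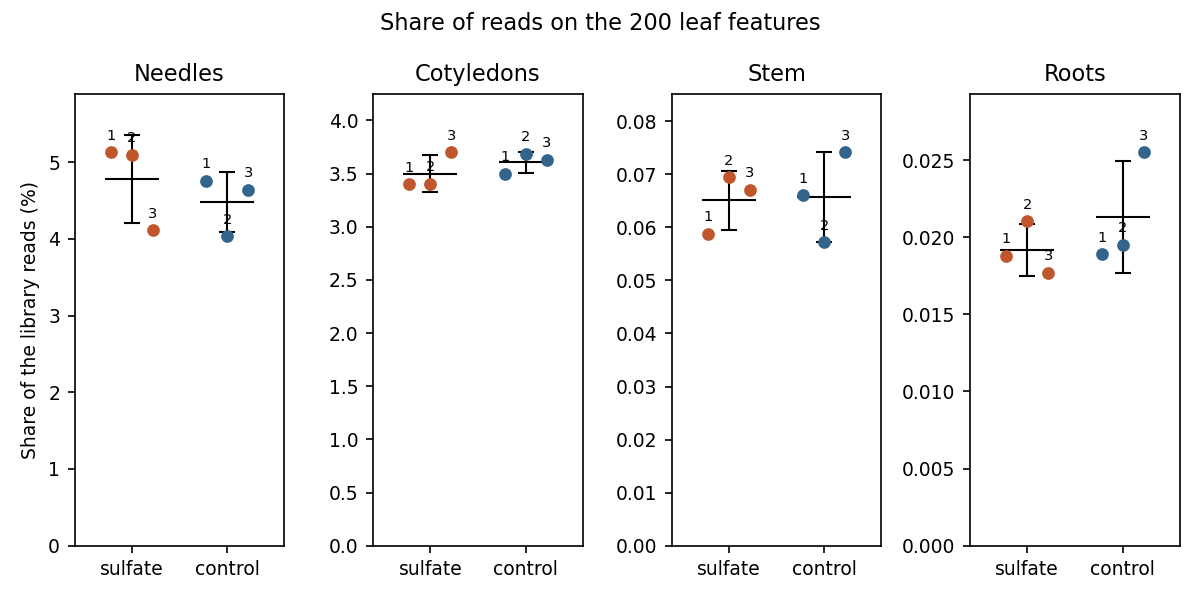
Share of each library's reads on the 200 members in percent, by organ and treatment, with sulfate left of control and a separate axis from 0 for each organ. Points are libraries numbered by replicate, and bars are the mean and SD of 3. Needles hold 4.03 to 5.13%, cotyledons 3.40 to 3.70%, stem 0.0571 to 0.0741% and roots 0.0177 to 0.0255%.

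For the members, needle libraries differed among themselves more than cotyledon libraries, and the same order held over all features with a mean of at least 5 normalized CPM. The members had a median SD of 0.293 on the log2 scale in sulfate needles and 0.230 in control needles, against 0.159 and 0.122 for those features. In cotyledons it was 0.218 with sulfate and 0.191 in control, against 0.126 and 0.113. Sulfate needles 3 lay below the mean of all 6 needle libraries for most members, with a median deviation of -0.21 and 47 of 200 members above that mean, while sulfate needles 1 lay at 0.17 with 141 above. Control needles 2 had a median deviation of -0.13 from the same mean. The effect of leaving these libraries out is given beside the needle results below.

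Between the 2 leaf organs, the sulfate libraries held 70 members higher and 20 lower in needles than in cotyledons, and 110 did not pass (limma, Benjamini-Hochberg adjusted p under 0.05). Among all features 20.1% were higher and 19.3% lower, so the share of members higher in needles lay above that of all features and the share lower lay below it, a difference that was not tested. The median log2 difference over the members was 0.23, against -0.0036 over all features, and the range was -1.004 to 2.39. The difference was under 2-fold in 182 members, which the choice favoured by bounding this difference in the controls. Of the 117 groups of neighbouring identifiers, 37 had a member higher in needles and 14 a lower one, and 0 had both. On recovered reads edgeR called 49 higher and 10 lower, each also called by limma, against 13840 and 11876 of all 67271 features. With a pseudocount of 0.1 the counts were 51 and 10, against 13635 and 12898. At these settings the share of higher members lay nearer to that of all features. With a pseudocount of 2 the counts were 77 and 27, against 12843 and 12835. They were 81 and 22 without sulfate needles 3, against 13673 and 12802 of all features. Without sulfate needles 1 they were 57 and 20, against 12732 and 11834, and without sulfate needles 2 they were 56 and 19, against 12394 and 11763.

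The largest differences between the leaf organs were those of PpCO2_110527 and PpCO2_100173. PpCO2_110527 had 141, 145 and 103 normalized CPM in sulfate needles against 30.8, 18.97 and 23.5 in sulfate cotyledons, a difference of 2.39 ± 0.22 in log2 units (SE; limma, Benjamini-Hochberg adjusted p = 4.33e-06). PpCO2_100173 had 705, 652 and 559 in sulfate needles against 121, 98.3 and 156 in sulfate cotyledons, a difference of 2.37 ± 0.21 (SE; limma, Benjamini-Hochberg adjusted p = 3.36e-06). In both, all needle values lay several-fold above all cotyledon values. PpCO2_100173 and the members PpCO2_100174, PpCO2_100182 and PpCO2_100186 lie close together in number.

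In the other direction the differences were smaller. PpCO2_55652 had 17.99, 20.99 and 19.2 normalized CPM in sulfate needles against 32.2, 41.6 and 45.5 in sulfate cotyledons, a difference of -1.004 ± 0.14 (SE; limma, Benjamini-Hochberg adjusted p = 0.000121). PpCO2_17992 had 14.3, 14.3 and 10.01 in sulfate needles against 25.2, 26.3 and 24.7 in sulfate cotyledons, a difference of -0.97 ± 0.13 (SE; limma, Benjamini-Hochberg adjusted p = 9.25e-05). Neither pair of groups overlapped, as was required of the members named for this comparison. When a difference of at least 2-fold was asked for, 6 members were higher and 0 lower in needles, and the 6 are those listed above with means more than 2 apart. Among all features 4.02% were higher and 1.73% lower at this threshold, so the members' shares lie near or under those of all features. The choice itself favoured this, since it admitted only features whose control needle and cotyledon means lay within 2 of each other.

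Between the axis organs, the sulfate libraries held 65 members higher and 15 lower in stem than in roots, and 120 did not pass (limma, Benjamini-Hochberg adjusted p under 0.05). Among all features 30.8% were higher and 25.0% lower. With the added 0.5, the share of members that were higher thus lies near that of all features and the share that were lower lies below it, which was not tested. The median difference over the members was 0.09 on the log2 scale, against 0.05 over all features, with a range of -3.21 to 5.18. That median rests on the added 0.5 at such low levels: it was 0.31 with a pseudocount of 0.1, 0.03 with a pseudocount of 2 and 1.43 by edgeR on recovered reads, and 0.15 without sulfate stem 1. Many differences could not be seen at such low levels: of the 151 members with a mean under 1 in both organs 37 passed, and of the 49 that reached 1 in either organ 43 passed. Scaling each library to its own total turned the balance over all features, to 16085 higher and 21757 lower, against 20752 and 16810 on the authors' scale, while the members stood at 66 and 15. With a pseudocount of 2 the members were 48 and 9, against 20338 and 16908 of all 67271 features. With a pseudocount of 0.1 they were 78 and 19, against 20646 and 16411. By edgeR on recovered reads they were 84 and 22, against 20731 and 15813. How near the share of higher members lies to that of all features therefore depends on the setting. By at least 2-fold 20 members were higher and 5 lower in stem, against 3.87% higher and 6.16% lower among all features.

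PpCO2_113000 and PpCO2_113003 had the largest differences in favour of stem. PpCO2_113000 had 36.2, 44.9 and 39.3 normalized CPM in sulfate stem against 0.374, 1.42 and 0.328 in sulfate roots, a difference of 5.18 ± 0.28 (SE; limma, Benjamini-Hochberg adjusted p = 2.09e-08). PpCO2_113003 had 28.0, 35.0 and 33.0 in sulfate stem against 0.436, 0.662 and 0.216 in sulfate roots, a difference of 5.14 ± 0.18 (SE; limma, Benjamini-Hochberg adjusted p = 5.09e-10). They belong to a group of 8 neighbours described below.

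PpCO2_88759 and PpCO2_55620 stood in the opposite direction. PpCO2_88759 had 0.0783, 0.323 and 0.690 normalized CPM in sulfate stem against 7.10, 5.96 and 8.66 in sulfate roots, a difference of -3.21 ± 0.23 (SE; limma, Benjamini-Hochberg adjusted p = 3.06e-07). PpCO2_55620 had 0, 0.0571 and 0.0460 in sulfate stem against 2.74, 2.03 and 4.45 in sulfate roots, a difference of -2.69 ± 0.21 (SE; limma, Benjamini-Hochberg adjusted p = 5.28e-07). Members that passed were thus not all higher in the same axis organ. By the direction of the means alone, stem was the higher axis organ in 139 members and roots in 60 in the sulfate libraries. Most of these differences did not pass, and the share over all features was not counted. The split was 123 and 77 without sulfate stem 3 and 154 and 46 without sulfate roots 2, so it is not stable.

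The 2 differences can be read side by side. Of the 70 members higher in needles than in cotyledons, 38 were also higher in stem than in roots and 0 were lower, while of all 13549 features higher in needles 5825 were higher and 3064 lower in stem (8.66% and 4.55% of all features). Of the 20 members that were lower in needles, 5 were higher and 1 was lower in stem, while of all 12991 such features 3630 were higher and 3575 lower in stem (5.4% and 5.31% of all features). These counts include whole groups of neighbours and are a description.

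**Figure D4:**
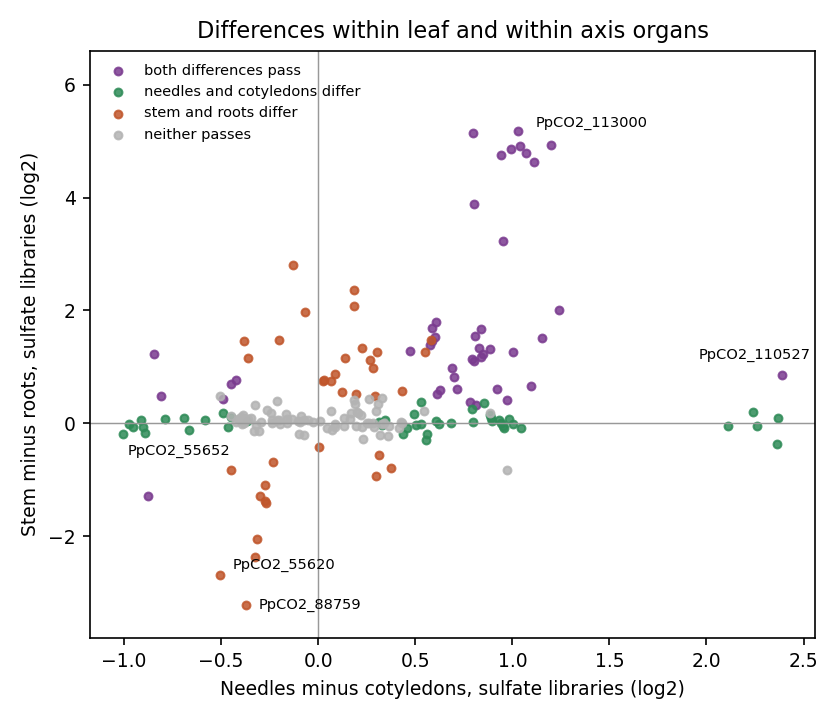
Difference between stem and roots against the difference between needles and cotyledons (log2, sulfate libraries) for the 200 members. Colours mark which of the 2 differences passed (limma, Benjamini-Hochberg adjusted p under 0.05). A cluster of 8 points near 5 on the vertical axis is the group of neighbours that holds PpCO2_113000.

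Neighbouring identifiers behaved alike. With numbers at most 2 apart counted as neighbours, 122 members had another member as neighbour and 78 stood alone, and the members fell into 117 groups, of which 9 held 5 or more. The 52 members of those 9 groups took 74.5 to 79.3% of the members' summed level in the sulfate leaf libraries. Levels centred on their group means had a median Pearson r of 0.85 over the 24 libraries for 70 adjacent pairs of members and 0.12 over 19900 pairs of members in all. This is a description, since the points share library and scaling. Of 306 listed neighbours that are no members, 60.1% had a sulfate gap above 0, against 29.6% of all features, and 37.6% a gap of at least 2, against 4.40% of all.

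The group with the highest summed level ran from number 112996 to 113003 and held 8 members. It summed to 18394 ± 3999 normalized CPM in sulfate needles and 8868 ± 278 in sulfate cotyledons, against 296 ± 26.6 in sulfate stem and 6.61 ± 4.49 in sulfate roots (SD, n = 3 each). All 8 were higher in needles than in cotyledons, by 0.80 to 1.199 on the log2 scale, and all 8 higher in stem than in roots, by 4.64 to 5.18 (limma, Benjamini-Hochberg adjusted p at most 0.0167). The order of its summed level was thus needles, cotyledons, stem and roots.

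Some groups differed less between needles and cotyledons, or held more in roots than in stem. The 6 members of the group of PpCO2_161976 summed to 6621 ± 1415 normalized CPM in sulfate needles and 6201 ± 357 in sulfate cotyledons, against 148 ± 3.91 in sulfate stem and 85.3 ± 4.12 in sulfate roots (SD, n = 3 each), and none of them passed between needles and cotyledons. In the group of PpCO2_88759 the sums were 2447 ± 518 in sulfate needles and 3051 ± 283 in sulfate cotyledons, against 0.910 ± 0.823 in sulfate stem and 14.2 ± 3.38 in sulfate roots. None of its 5 members passed between needles and cotyledons. All 5 were lower in stem than in roots, by -0.68 to -3.21 (limma, Benjamini-Hochberg adjusted p at most 0.0103).

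The group of PpCO2_37288 was close to absent from both axis organs, with sums of 0.583 ± 0.763 normalized CPM in sulfate stem and 0.412 ± 0.583 in sulfate roots, against 4982 ± 1107 in sulfate needles and 2753 ± 1182 in sulfate cotyledons (SD, n = 3 each). None of its 5 members passed between stem and roots and 4 were higher in needles than in cotyledons. In the group of PpCO2_30417 all 7 members were higher in needles than in cotyledons and all 7 higher in stem than in roots, and its sums were 929 ± 74.8 in sulfate needles and 525 ± 62.2 in sulfate cotyledons.

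The comparison of sulfate with control asks whether leaf features responded 24 h after sulfate was supplied. Few passed the test: in needles 1 of 200 members fell and 0 rose, and in cotyledons 0 were called in either direction (limma, Benjamini-Hochberg adjusted p under 0.05; edgeR on recovered reads gave the same counts). Among all features tested 0.478% fell and 0.0357% rose in needles, and 0.286% fell and 0.0164% rose in cotyledons, so the share of members that passed lies near that of all features. At an unadjusted p under 0.05, 6 members were higher and 9 lower in sulfate needles, against 3.11% higher and 4.15% lower among all features tested. Without sulfate needles 3 these counts were 42 and 20, and those of all 58847 features 5728 and 6300. Leaving out another needle library gave 3 to 15 and 8 to 14 members, against 864 to 1998 and 1400 to 2827 of all features. In cotyledons 16 members were higher and 14 lower, against 4.88% higher and 3.45% lower among all features tested. Leaving out a cotyledon library gave 6 to 21 and 11 to 19 members, against 1620 to 3154 and 1194 to 3367 of all 54944 features. The control libraries also chose the members, which can pull the difference of sulfate minus control down in leaf organs and up in axis organs.

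Differences were small as well as uncalled. The median over the members was 0.08 on the log2 scale in needles, with a median SE of 0.192, and 0.03 in cotyledons, with a median SE of 0.153. Leaving out a library moved the needle median to 0.17 without sulfate needles 3, -0.0053 without sulfate needles 1, 0.01 without sulfate needles 2, 0.12 without control needles 1 and -0.01 without control needles 2, so its direction was not stable. In cotyledons it was 0.09 without sulfate cotyledons 1, 0.0049 without sulfate cotyledons 2, 0.02 without control cotyledons 1 and 0.05 without control cotyledons 2. It was under 2-fold in 198 of 200 members in needles and 196 of 200 in cotyledons. With 3 pools a treatment and these errors, smaller changes could not be detected, so the missing calls do not show that levels were equal.

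Single calls depended on the libraries and on the fit. With sulfate needles 3 left out, 2 members rose in needles. With control needles 2 left out, 4 fell, and with control needles 3 left out, 2 fell. Over all 58847 features tested in needles, the fit without sulfate needles 3 called 70 higher and 310 lower. The fit without control needles 3 called 12 and 263. Without control needles 2, fewer features were called in each direction than the 21 and 281 called with all needle libraries. With sulfate cotyledons 3 left out, 3 members fell in cotyledons, and with control cotyledons 2 left out, 1 fell. Over all 54944 features tested in cotyledons, those fits called 5 higher and 176 lower, and 2 and 94. A fit of all 24 libraries, which shares 1 estimate of the spread, gave 2 rises and 2 falls in needles, 5 falls in cotyledons and 1 fall in stem. Over all 58847 features in needles it called 249 higher and 505 lower, against 21 and 281 in the fit within the organ. In cotyledons it called 200 and 316 of all 54944 features, against 9 and 157. In stem it called 120 and 404 of all 58468 features, against 77 and 307. No member was called in opposite directions in these fits.

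PpCO2_167729 was the member that fell in needles. It had 15.8, 13.3 and 13.6 normalized CPM in sulfate needles against 40.8, 37.9 and 30.5 in control needles, a change of -1.32 ± 0.13 in log2 units (SE; limma, Benjamini-Hochberg adjusted p = 0.00402). The groups did not overlap, as was required of a member named here. Without any single needle library the call held (limma, Benjamini-Hochberg adjusted p from 0.00533 to 0.0342). In cotyledons it had 13.0, 8.89 and 17.2 with sulfate against 34.0, 31.8 and 28.3 in control, a difference of -1.28 ± 0.22 that did not pass (SE; limma, Benjamini-Hochberg adjusted p = 0.192), though it did pass in the fit of all 24 libraries. The effects in needles and cotyledons differed by -0.04 ± 0.27, which did not pass (SE; limma, Benjamini-Hochberg adjusted p = 0.989). In the axis it had at most 0.424 normalized CPM in any of the 12 libraries.

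Whether the response to sulfate differed between needles and cotyledons was tested directly in all 200 members, and 0 passed in either direction, as in all 53289 features tested (0.0% each; limma, Benjamini-Hochberg adjusted p under 0.05; edgeR also gave 0). At an unadjusted p under 0.05, 1 member was higher and 1 lower, against 1.96% higher and 2.15% lower among all features tested. Without sulfate needles 3 these counts were 15 and 2, without sulfate cotyledons 3 they were 12 and 2, and without any other leaf library they were 1 to 5 and 1 to 4. The counts over all 53289 features moved as well. They were 3707 and 3572 without sulfate needles 3, and 1549 and 1467 without sulfate cotyledons 3, against 1044 and 1146 with all libraries. With another leaf library left out they were 455 to 1627 and 680 to 1893. The lowest p belonged to PpCO2_173279. It had 98.8, 90.5 and 104 normalized CPM in sulfate needles against 179.7, 115 and 198 in control needles, and 81.4, 80.9 and 93.4 in sulfate cotyledons against 67.6, 64.8 and 91.7 in control cotyledons. The difference of effects was -0.91 ± 0.27 (SE; limma, unadjusted p = 0.00526, Benjamini-Hochberg adjusted p = 0.939). The opposite direction of its means thus did not pass once adjusted over the 53289 features tested.

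In the axis few members could be tested. The filter, at least 3 of 6 libraries at 1 or more, was passed by 49 members in stem and 23 in roots. In both organs 0 members were called in either direction (limma, Benjamini-Hochberg adjusted p under 0.05; edgeR also gave 0). Among all features tested 0.132% rose and 0.525% fell in stem, and 0.487% rose and 1.38% fell in roots. At an unadjusted p under 0.05, 3 members were higher and 4 lower in stem, against 6.09% higher and 5.17% lower among all features tested. Leaving out a stem library gave 2 to 6 members in each direction, against 2685 to 3355 higher and 2431 to 3111 lower of all 58468 features. In roots 0 were higher and 3 lower, against 7.63% and 6.87%. Members that passed this filter are those with the higher axis levels and do not stand for the whole list.

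The lowest p of each remaining comparison belonged to a member that did not pass. PpCO2_72311 had 25.1, 23.8 and 24.2 normalized CPM in sulfate cotyledons against 33.2, 34.5 and 34.4 in control cotyledons, a difference of -0.47 ± 0.06 (SE; limma, Benjamini-Hochberg adjusted p = 0.0514). PpCO2_84344 had 2.23, 2.59 and 2.71 in sulfate stem against 1.92, 1.51 and 1.8002 in control stem, a difference of 0.42 ± 0.12 (SE; limma, Benjamini-Hochberg adjusted p = 0.277). PpCO2_161971 had 16.96, 16.8 and 15.3 in sulfate roots against 18.7, 18.6 and 22.4 in control roots, a difference of -0.27 ± 0.09 (SE; limma, Benjamini-Hochberg adjusted p = 0.188). For all 3 members the sulfate and control values did not overlap, yet the difference did not pass the adjusted threshold.

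**Figure D5:**
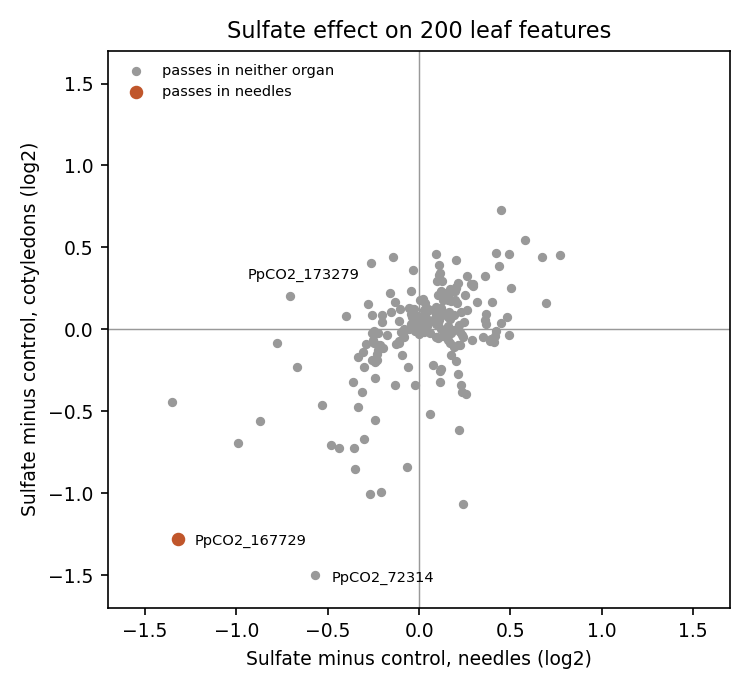
Difference of sulfate minus control (log2) in needles (horizontal) and in cotyledons (vertical) for the 200 members. Each point is a member, and the larger coloured point passed in needles (limma, Benjamini-Hochberg adjusted p under 0.05). That point is PpCO2_167729, at -1.32 in needles and -1.28 in cotyledons, and most members lie close to 0 in both organs.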

How the data were processed

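Groups and replicate numbers came from the labels, and the members and all tests and lists were chosen with earlier results of these data known. Libraries of poly(A) RNA, made with random hexamers, gave paired 150 bp NovaSeq reads (per the labels' protocols). Of tools, bcl2fastq and BWA are named in the submitters' processing notes. The sources used here do not give how reads were counted, against which reference, or how values were scaled and filtered. The deposited values are a signal: the authors' CPM of a scaled library size, with implied factors of 0.877 to 1.22. Comparisons between organs rest on that scaling. No strand-keeping kit is described, so reads of a transcript and of one antisense to it cannot be told apart. Each listed feature reaches 1 in at least 3 libraries. Within 0.01 of a step, 99.99 to 100% of values were whole reads; for needle control 2 that step is close to 0.01, where rounding could mimic it. Even numbers made up 57.9 to 69.9% of values of 1 to 20 reads, as if both mates had been counted. Within groups, chi-square values between libraries were 10.95 to 68.09 per feature, so none was treated as a repeat.

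Tests used limma 3.58.1 (lmFit, eBayes with trend and robust) in R 4.3.3 on log2(value + 0.5), with Benjamini-Hochberg adjustment over all features tested and a threshold of 0.05. Organ contrasts used the 12 sulfate libraries without a filter. Leaf over axis required all 4 contrasts. Sulfate was tested against control within each organ over features reaching 1 in at least 3 of 6 libraries, and the needle and cotyledon effects were compared in 1 model. P-values measure the spread between 3 pools a group, which the labels call biological replicates. The plan left the unit open, and edgeR 4.0.16 on recovered reads was an alternative, with other pseudocounts, filters, scalings and fits. The fits were tested on simulated reads, where false calls exceeded the nominal share for sulfate against control within an organ. Same-numbered sulfate libraries deviated together (every correlation over 0.1) for stem with needles, cotyledons and roots and for cotyledons with roots, but not for needles with cotyledons or roots. Between treatments they did so in cotyledons alone. With the number as a block, leaf over axis stood at 200 members, stem against roots at 67 higher and 15 lower, and cotyledons at 0.

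Named members are the first 2 of the rule, the 2 at each side of its edge, the 2 with the highest sulfate leaf mean, the 2 highest and 2 lowest sulfate gaps, and per comparison the 2 largest differences in each direction that passed without overlap, or the lowest p where none passed; others are said to be chosen after seeing values. Figures were drawn in Python 3.11.15 with matplotlib 3.10.9.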

Additional observations from a re-analysis of the deposited data

How the results depend on the processing

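Leaf over axis held for 200 of 200 members in all 21 alternatives. Asking for at least 2-fold left 6 members higher and 0 lower in needles than in cotyledons, 20 higher and 5 lower in stem than in roots, and 0 lower in sulfate than in control needles. Members lower in needles than in cotyledons numbered 10 with a pseudocount of 0.1 and 10 by edgeR, and those lower in stem than in roots 9 with a pseudocount of 2; the cause was not tested. For sulfate against control, a fit of all 24 libraries gave 2 higher (PpCO2_5783, PpCO2_113190) and 2 lower members in needles, 5 lower in cotyledons and 1 lower in stem, and 1 was lower in roots without a filter. In needles, cotyledons and stem the calls over all features also rose in the fit of all 24 libraries, as given above. Without a filter 810 of all 67271 features were lower in roots. Leaving out a library gave 0 to 2 higher and 1 to 4 lower members in needles and 0 to 3 lower in cotyledons. Replicate numbers shared by needle libraries are no known pairing. With the replicate block 1 member was higher in needles, PpCO2_113190, among 40 of all 58847 features. The block changed no other treatment call.

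The rule kept 137 to 197 of its 200 members under other pseudocounts, limits, scaling or without a control replicate number, lowest with a pseudocount of 2. Applied to the sulfate libraries it returned 125 to 177. The named members gave 358 alternative values, of which 355 kept their direction and side of the threshold and 3 no longer passed, all under the 2-fold threshold (PpCO2_55652, PpCO2_17992 and PpCO2_167729). Scaling to library totals multiplied the values of a library by a factor whose log2 was, in needles, -0.02 to -0.19, in cotyledons -0.06 to -0.11, in stem 0.09 to 0.14 and in roots 0.26 to 0.28. Low axis levels limit what can be seen there, and 3 pools a group limit small changes.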
